A study of Mus musculus with 6 samples.

Results

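Expression of 9 genes for signals that recruit or sustain leukocytes and microglia was followed in cultured mouse neural stem/progenitor cells (NSPCs). The 9 genes, of 17254 genes with a count in some library, are the chemokine genes Ccl2, Ccl5, Ccl7, Cxcl1, Cxcl10, Cxcl12, Cxcl16 and Cx3cl1 and the growth factor gene Csf1. They were chosen by name with the measured levels and differences of these same libraries in view. Their levels and differences between groups are therefore a description. No p-value is given for any of the 9, and how many of them the fit called is counted only beside the share of all genes. The gene lists set beside them were likewise drawn up with earlier results of these data known. Calls and adjusted p-values of listed genes are corrected over all genes tested, not for that choice, and are a description too.

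The study exposed NSPCs to a pro-oxidant or an antioxidant for 48 h and sequenced RNA from 6 libraries, 2 per group. Control cells were mock-treated, PQ cells received 5 µM paraquat, which generates superoxide inside cells, and NAC cells received 5 mM N-acetylcysteine, a thiol antioxidant. The study's methods describe an immortalized culture from the subventricular zone of neonatal Ink/Arf-null mice, a mix of quiescent and activated stem cells and progenitors committed to a lineage, grown with EGF and bFGF. All 3 groups share that background, and the cells were measured in culture and not in brain tissue. The labels of control 1 and PQ 1 give the genotype as an Ink/Ark knockout (their spelling) on C57BL/6 and RNA isolation with NucleoSpin. Those of control 2, PQ 2, NAC 1 and NAC 2 give TRIZOL and no genotype. NAC therefore exists only under the TRIZOL label, and the labels do not say whether libraries of a group came from separate cultures. P-values then measure the spread between these libraries only, which may be technical. Expected counts, the deposited estimates of reads per gene, summed to 9849392 in control 1, 10040827 in control 2, 10388731 in PQ 1, 9680436 in PQ 2, 10698241 in NAC 1 and 9907726 in NAC 2. Cdkn2a, the gene of the Ink/Arf locus, had 137 and 162 counts in control, 120 and 130 in PQ, and 130 and 131 in NAC. A count summed over a gene does not show which exons the reads came from, so these counts check nothing about the deletion.

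Chemokines are small secreted proteins that direct the migration of cells bearing matching G protein-coupled receptors. CC-type members such as CCL2 and CCL7 attract monocytes, ELR-bearing CXC members such as CXCL1 attract neutrophils, and CXCL10 is an interferon-inducible attractant of activated T cells. CX3CL1 and CXCL16 are made as membrane proteins and can be shed by metalloproteases, CXCL12 retains progenitors in their niches, and CSF1 sustains microglia and macrophages through its receptor kinase.

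Of the 9 genes, 7 were abundant enough to be compared, with a mean of at least 1 FPKM (fragments scaled to transcript length and library size), and all 7 lay well above that filter in every group. Ccl2, Ccl5, Ccl7, Cxcl1, Cxcl10, Cx3cl1 and Csf1 were higher in both PQ libraries than in both control libraries. In NAC, Ccl2, Cxcl1, Cxcl10, Cx3cl1 and Csf1 were higher than in control, Ccl7 overlapped control and Ccl5 was lower. The rise was smaller in NAC than in PQ for Ccl2, Cxcl10 and Cx3cl1. For Cxcl1 and Csf1 the log2 difference of PQ against NAC was 0.15 ± 0.15 (SE) and 0.25 ± 0.13. Within the TRIZOL libraries it was 0.09 for Cxcl1 and -0.04 for Csf1, so no order of the 2 treatments is given for them. Cxcl12 and Cxcl16 were at or near the detection limit in every library. Summed over the 9 genes, the level came to 342.56 and 281.38 FPKM for control, 860.49 and 708.94 for PQ, and 544.84 and 565.02 for NAC.

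**Figure D1:**
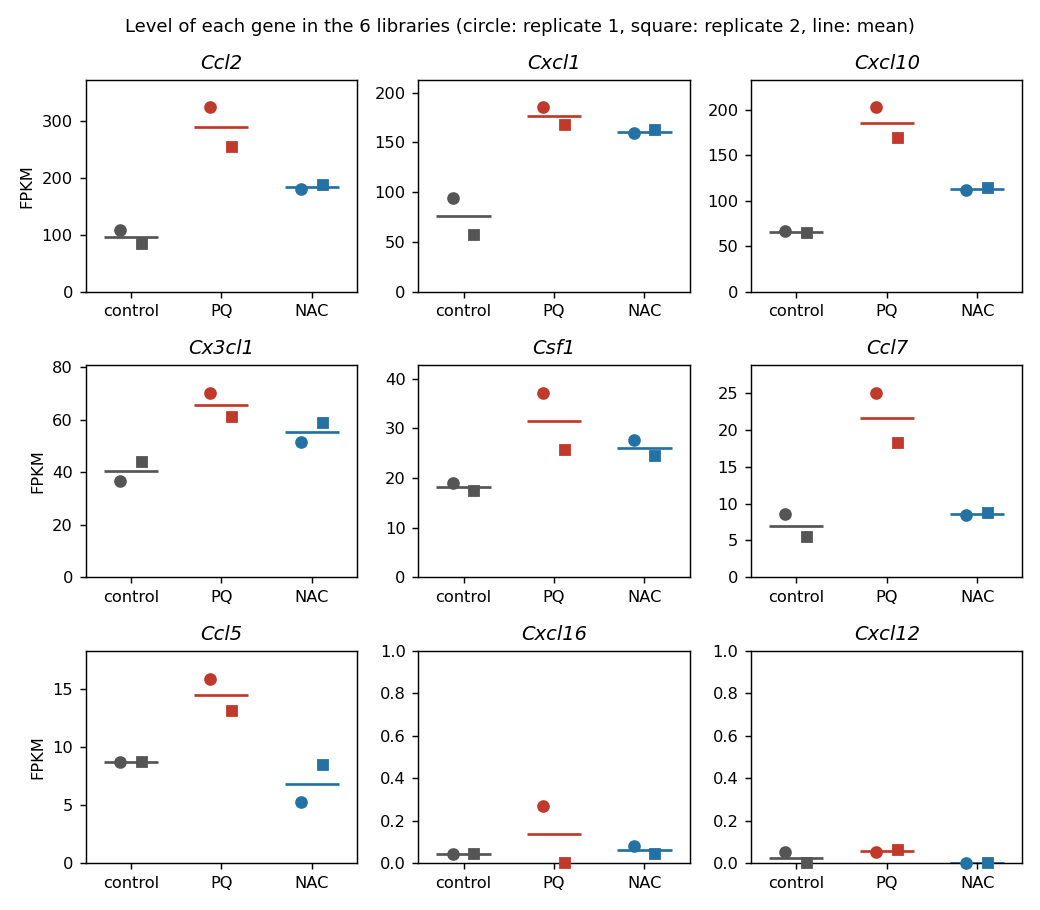
FPKM (y axis, from 0, a scale of its own in each panel) of the 9 genes in control, PQ and NAC; circles are library 1, squares library 2 and lines the mean of 2 libraries. Ccl2 reached 324.47 FPKM in PQ 1, whereas no library exceeded 0.06 FPKM for Cxcl12.

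Across all 11717 genes tested, 9.76% passed the threshold of 0.05 as higher in PQ than in control and 9.45% as lower, and 29.2% had both PQ libraries above both control libraries. The 7 measurable genes were all called higher, and in all 7 the groups did not overlap. In NAC against control, 9.01% of all genes were called higher and 9.64% lower, and 28.4% had both NAC libraries above both controls. Here 5 of the 7 were called higher and 0 lower, and 5 had no overlap in the higher direction. In PQ against NAC, 16.0% of all genes were called higher and 15.7% lower, and 33.2% had both PQ libraries above both NAC libraries. Of the 7 genes, 4 were called higher in PQ than in NAC, and 6 had no overlap. Nothing is read from these counts, since the genes were picked with the values known. The median log2 fold change of the 7 genes was 1.19 in PQ against control, where the median of all genes was -0.001. It was 0.51 in NAC against control and 0.67 in PQ against NAC. These comparisons share libraries pairwise, so their values stand side by side and are not independent.

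How many of these genes were called depended on the libraries kept and on the test, in all 3 comparisons. For Ccl5, Cx3cl1 and Csf1 the log2 fold changes are therefore given as sizes only. In PQ against control Ccl5 was at 0.72, 0.71, 0.59 and 0.83 without control 1, control 2, PQ 1 and PQ 2. With all libraries under the DESeq2 test it was 0.72. In NAC against control Cx3cl1 was at 0.30 without control 1 and 0.32 without NAC 2. Csf1 was at 0.43 in NAC against control without NAC 1. With all libraries under limma it was 0.50 or 0.52, as 1 or 0.1 was added to FPKM before taking logs. In PQ against NAC Cx3cl1 was at 0.27 without control 1 or control 2, and Csf1 at 0.50 without PQ 2.

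Promoter sequence is shown because these genes were higher together in PQ. RefSeq promoter windows on GRCm38.p6, from 250 bases before to 50 after the start of transcription, were given for 5 of the 9 genes (Cxcl1, Cxcl10, Cxcl12, Cx3cl1 and Csf1), and Ccl2, Ccl5, Ccl7 and Cxcl16 had no entry. Both strands were searched for GGNNNTTCC (a kappaB-type motif, read by NF-kB proteins), GAAANNGAA (an interferon-stimulated response element type, read by IRF-containing complexes) and TGANTCA (an AP-1 type). The kappaB-type letters occurred in the windows of all 4 measurable genes among the 5. They occurred in 18.5% of all 32851 windows, the response element type in 8.56% and the AP-1 type in 7.81%. Cxcl1 and Cxcl10 had 2 kappaB-type matches each, Cx3cl1 and Csf1 had 1 each, and the Cxcl12 window held none of the 3 motifs. The Cxcl10 window also held 1 response element type match and 1 AP-1 type match. The stretches below run 5′ to 3′ in the direction of transcription, with every motif match in capitals. A match is a description of letters and not evidence that a factor binds there.
Cxcl1: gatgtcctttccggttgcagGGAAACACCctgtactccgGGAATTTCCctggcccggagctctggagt
Cxcl10: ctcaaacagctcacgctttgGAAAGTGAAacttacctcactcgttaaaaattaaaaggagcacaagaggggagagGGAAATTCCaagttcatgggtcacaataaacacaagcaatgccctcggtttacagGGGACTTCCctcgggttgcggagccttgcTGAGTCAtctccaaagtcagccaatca
Cx3cl1: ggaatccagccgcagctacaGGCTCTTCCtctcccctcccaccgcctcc
Csf1: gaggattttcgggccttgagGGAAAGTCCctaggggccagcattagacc

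The Cxcl1 stretch lies at chr5:90891136-90891203 on the plus strand of GRCm38.p6, from 109 to 42 bases before the start. The Cxcl10 stretch lies at chr5:92348937-92349122 on the minus strand, with the response element type match starting at -213, the kappaB-type matches at -158 and -103, and the AP-1 type match at -74. The Cx3cl1 stretch lies at chr8:94772089-94772137 on the plus strand and the Csf1 stretch at chr3:107760595-107760643 on the minus strand. The other chemokine and cytokine genes listed for comparison were counted per gene, as some had several windows (Ccl25 and Il33 2, Ccl27a 3). The kappaB-type letters occurred for 4 of 11 genes with a window and a mean of at least 1 FPKM. They occurred for 10 of 23 such genes below it, whereas the share of all windows is per window.

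Ccl2 (NCBI gene 20296), the monocyte attractant, was the most abundant of the 9 genes in all 3 groups. Its level was 108.15 and 84.84 FPKM in control, 324.47 and 254.29 in PQ, and 180.82 and 188.50 in NAC. The 3 groups did not overlap, and the order was control, NAC, PQ. The log2 fold change was 1.56 ± 0.12 (SE, n = 2 per group) in PQ against control, 0.89 ± 0.12 in NAC against control and 0.67 ± 0.12 in PQ against NAC. Within the NucleoSpin libraries PQ differed from control by 1.54, and within the TRIZOL libraries by 1.58. By mean FPKM Ccl2 ranked 331 of 17254 genes.

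Ccl7 (NCBI gene 20306), a second monocyte attractant, is the next gene along chromosome 11, 8259 bases beyond the end of Ccl2 on mm9 (chr11:81849073-81850955 for Ccl2 and chr11:81859214-81861027 for Ccl7, both on the plus strand, GENCODE vM1). Ccl7 was at 8.56 and 5.49 FPKM in control, 24.99 and 18.23 in PQ, and 8.41 and 8.74 in NAC. Both PQ libraries stood above the other 4, and the NAC and control libraries overlapped. Its log2 fold change was 1.60 ± 0.21 in PQ against control, 0.24 ± 0.23 in NAC against control and 1.35 ± 0.20 in PQ against NAC. The small difference between NAC and control turned to -0.05 without control 2 and was 0.60 without control 1. Ccl2 and Ccl7 thus differed from control by much the same amount in PQ, whereas in NAC Ccl2 lay clear of control and Ccl7 about 1 SE from it.

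Ccl5 (NCBI gene 20304), an attractant of T cells and monocytes on chromosome 11 (chr11:83339280-83344020, minus strand, mm9), was the least abundant of the 7 measurable genes over the 6 libraries. Its level was 8.66 and 8.67 FPKM in control, 15.89 and 13.12 in PQ, and 5.26 and 8.42 in NAC, from only 31 to 91 counts per library. It was the only one of the 7 with both NAC libraries below both controls, though NAC 2 lay close to them. Ccl5 differed by 0.72 ± 0.24 in log2 terms in PQ against control, -0.40 ± 0.27 in NAC against control and 1.11 ± 0.25 in PQ against NAC. Without NAC 1 the NAC difference was -0.09 and without NAC 2 it was -0.76, so its size rested on 1 library.

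Among the CXC genes, Cxcl1 (NCBI gene 14825), the neutrophil attractant, stood at 94.57 and 56.96 FPKM in control, 185.15 and 167.57 in PQ, and 159.64 and 161.96 in NAC. Both treated groups lay above both controls, and PQ exceeded NAC by little. As log2 fold changes these were 1.19 ± 0.15 in PQ against control, 1.04 ± 0.15 in NAC against control and 0.15 ± 0.15 in PQ against NAC. The 2 control libraries differed more for Cxcl1 than for any other of the 7 genes, and the PQ difference was 0.92 within the NucleoSpin libraries and 1.55 within the TRIZOL libraries. PQ against NAC was 0.09 without PQ 1, and -0.05 with the labelled protocol as a covariate.

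Cxcl10 (NCBI gene 15945), the interferon-inducible attractant, was at 66.75 and 64.32 FPKM in control, 202.38 and 168.96 in PQ, and 111.35 and 113.98 in NAC. As for Ccl2, the 3 groups did not overlap and NAC lay between control and PQ. The log2 fold change was 1.48 ± 0.10 in PQ against control, 0.73 ± 0.10 in NAC against control and 0.74 ± 0.10 in PQ against NAC. Within protocols PQ differed from control by 1.55 (NucleoSpin) and 1.39 (TRIZOL). Cxcl10 had the smallest SE of the 7 genes in PQ against control.

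Cx3cl1 (NCBI gene 20312), the membrane-bound chemokine through which neurons and other cells address microglia, lies on chromosome 8 (chr8:97295909-97306323, plus strand, mm9). It was at 36.81 and 43.75 FPKM in control, 70.14 and 61.04 in PQ, and 51.65 and 58.89 in NAC. Again the groups did not overlap, with NAC between control and PQ. In log2 terms the difference was 0.68 ± 0.11 in PQ against control, 0.41 ± 0.11 in NAC against control and 0.27 ± 0.11 in PQ against NAC. The PQ difference was 0.88 within the NucleoSpin libraries and 0.48 within the TRIZOL libraries.

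Csf1 (NCBI gene 12977), the growth factor of microglia and macrophages, lies on chromosome 3 (chr3:107543966-107563387, minus strand, mm9). Its level was 18.97 and 17.31 FPKM in control, 37.15 and 25.67 in PQ, and 27.63 and 24.49 in NAC. PQ 1 was the high library, and PQ 2 lay between the NAC libraries. The log2 fold change was 0.76 ± 0.14 in PQ against control, 0.51 ± 0.14 in NAC against control and 0.25 ± 0.13 in PQ against NAC. Without PQ 1, or within the TRIZOL libraries, PQ against NAC was -0.04, whereas without PQ 2 it was 0.50. PQ against control was likewise 0.46 without PQ 1 and 1.00 without PQ 2. The authors' length for Csf1, averaged over its transcripts, ran from 3897 to 4098 bases between libraries, while the length of each other member was constant.

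**Figure D2:**
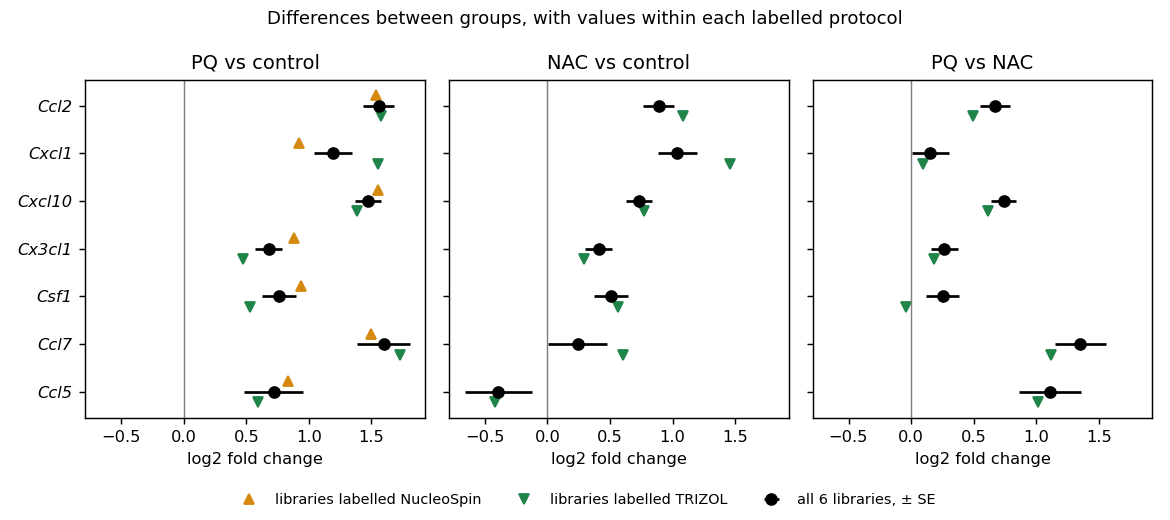
Log2 fold changes (x axis) of the 7 measurable genes in PQ against control, NAC against control and PQ against NAC; black points are edgeR estimates from all 6 libraries with SE, triangles are differences within the NucleoSpin or the TRIZOL libraries. All PQ against control values lie above 0, and Ccl5 lies below 0 in NAC against control.

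The last pair was near the limit of detection. Cxcl12 (NCBI gene 20315), a niche chemokine of stem cells, had 1 count in control 1, PQ 1 and PQ 2 and 0 counts in control 2, NAC 1 and NAC 2, at most 0.06 FPKM. A count of 0 allows up to 3 counts, which is 0.299 CPM (counts scaled to library size) in control 2, 0.28 in NAC 1 and 0.303 in NAC 2, for counting error only. Cxcl16 (NCBI gene 66102), the other membrane-bound chemokine, had 1 count in each control library, 7 in PQ 1, 0 in PQ 2, 2 in NAC 1 and 1 in NAC 2, at most 0.27 FPKM. Its only library above 3 counts was PQ 1, and the other PQ library held 0, so no difference between groups was detectable at this depth and no fold is given. By the rule of at most 3 counts in every library 1 gene (Cxcl12) was near the limit. By at most 10 counts in every library, or by a mean below 1 FPKM, it was 2 genes, with Cxcl16.

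Ordered by mean FPKM, the control group ran Ccl2 (96.5 ± 16.5, SD, n = 2), Cxcl1 (75.8 ± 26.6) and Cxcl10 (65.5 ± 1.72), each overlapping its neighbour, then Cx3cl1 (40.3 ± 4.91), Csf1 (18.1 ± 1.17), Ccl5 (8.67 ± 0.007) and Ccl7 (7.03 ± 2.171). In PQ the order was Ccl2 (289.4 ± 49.6), Cxcl10 (185.7 ± 23.6), Cxcl1 (176.4 ± 12.4), Cx3cl1 (65.6 ± 6.44), Csf1 (31.4 ± 8.12), Ccl7 (21.6 ± 4.78) and Ccl5 (14.5 ± 1.96), and Cxcl10 and Cxcl1 overlapped. In NAC it was Ccl2 (184.7 ± 5.43), Cxcl1 (160.8 ± 1.64), Cxcl10 (112.7 ± 1.86), Cx3cl1 (55.3 ± 5.12), Csf1 (26.1 ± 2.22), Ccl7 (8.58 ± 0.23) and Ccl5 (6.84 ± 2.23), where Ccl7 and Ccl5 overlapped. The same gene led in each group, and the places that changed were those of Cxcl1 with Cxcl10 and of Ccl5 with Ccl7.

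The expression of these genes was uneven within their chromosomal clusters. Beside Ccl2 and Ccl7, the neighbours Ccl11, Ccl12, Ccl8 and Ccl1 held at most 2 counts in any library. Beside Cxcl10, its interferon-inducible relatives Cxcl9 and Cxcl11 had means of 0.098 and 0.5 FPKM. Cxcl9, Cxcl10 and Cxcl11 bind the same receptor, and only Cxcl10 passed the filter. Beside Cxcl1, Cxcl5 had a mean of 29.4 FPKM and Cxcl2 of 2.07, whereas Ppbp, Pf4, Cxcl3 and Cxcl15 had at most 3.66 counts in any library. In the Ccl5 cluster, Ccl9 had a mean of 1.27 FPKM, and Ccl6, Ccl3 and Ccl4 at most 1 count in any library.

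**Figure D3:**
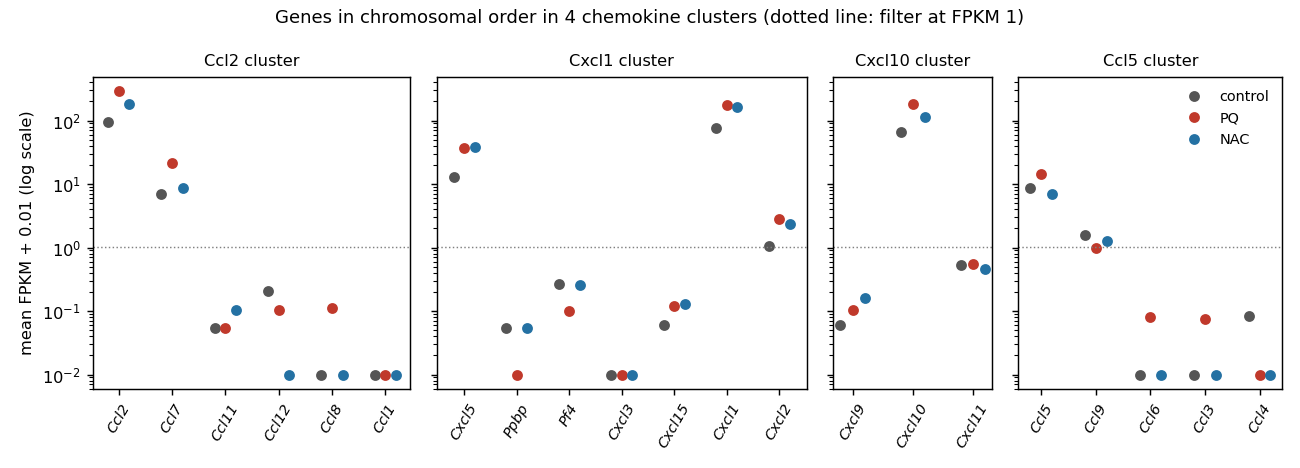
Mean FPKM plus 0.01 (y axis, log scale) in control, PQ and NAC for the genes of 4 chemokine clusters in chromosomal order. In each cluster 1 to 3 genes lie above the dotted line at 1 FPKM in all or some groups, and the others lie below it.

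Of the 43 other chemokines and cytokines listed for comparison, 13 were abundant enough to test and 24 had at most 3 counts in every library. As the list was drawn up with earlier results known, nothing is read from how many of them were called. In PQ against control 5 of the 13 rose and 1 fell, beside 9.76% and 9.45% of all genes. Cxcl5, a neutrophil attractant and neighbour of Cxcl1, rose from 14.01 and 11.45 FPKM in control to 43.4 and 31.4 in PQ (log2 fold change 1.53 ± 0.14, adjusted p = 1.4e-06, edgeR). Cxcl5 rose by the same amount in NAC, to 38.64 and 37.32 FPKM (1.53 ± 0.14, adjusted p = 5.5e-07, edgeR). Its counts in PQ 1 and NAC 1 were fractional, a sign of reads shared with another gene, whereas the counts of all 9 chosen genes were whole to within 0.01 in every library. Lif, an IL-6 family cytokine, rose from 3.8 and 4.59 FPKM in control to 11.38 and 9.91 in PQ (1.32 ± 0.14, adjusted p = 4.3e-06, edgeR) and stood at 4.89 and 5.44 in NAC. Il33, an alarmin stored in the nucleus, rose in PQ (0.71 ± 0.09) and fell in NAC (-0.54 ± 0.10), with no overlap between any of the 3 groups. Cxcl2 and Kitl also rose in PQ and Ccl28 fell, but without control 2 or PQ 1 none of the 3 passed, leaving 3 genes that rose and 0 that fell. Cxcl2 was then 0.84 and 1.20, Kitl 0.28 and 0.38, and Ccl28 -0.71 and -0.53, and Ccl28 was also lost without control 1 (-0.67). With all 6 libraries Cxcl2 (1.40) and Ccl28 (-0.69) were not called by the DESeq2 test, nor Ccl28 by limma on log2(FPKM + 1) (-0.42) or log2(FPKM + 0.1) (-0.64). In NAC, where 9.01% of all genes rose and 9.64% fell, 1 of the 13 rose, Cxcl5, and 2 fell, Il33 and Mif, the latter with a log2 fold change of -0.61 ± 0.10. Cxcl2 was also called higher in NAC with the labelled protocol as a covariate (1.51) or with no filter on low values (1.13). Without control 1 the count that rose in NAC was 2, with Cxcl2 added at 2.02, and without control 2 or NAC 2 the count that fell was 3. In PQ against NAC 5 were higher (Il34, Kitl, Mif, Lif and Il33) and 0 lower, beside 16.0% and 15.7% of all genes, and the count was 3 without PQ 1, PQ 2 or NAC 1. Then Il34 (0.43, 0.50 and 0.24) and Kitl (0.25, 0.30 and 0.36) were not called, and Kitl was also lost without NAC 2 (0.20). With the labelled protocol as a covariate Il34 (0.41) and Kitl (0.20) were not called either. Among cytokines that commonly accompany chemokines, Il6, Il1a, Il1b and Tnf had at most 3 counts in every library.

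Of 24 chemokine, CSF1 and related receptors, 4 passed the filter and 13 had at most 3 counts in every library. The receptor of CSF1, Csf1r, had between 0 and 3 counts, and Cxcr3, the receptor of CXCL10, had 0. Ccr2, the receptor of CCL2 and CCL7, had between 0 counts (NAC 1) and 8.03 counts (PQ 2), fractional in 4 libraries. Cx3cr1, the receptor of CX3CL1, had 19.83 to 33.94 counts, fractional in all 6 libraries, at 0.51 to 0.93 FPKM. Cxcr4, the receptor of CXCL12, was the exception among receptors of the chosen ligands with whole counts. It rose from 13.32 and 13.51 FPKM in control to 21.76 and 21.08 in PQ (0.65 ± 0.12, adjusted p = 0.00068, edgeR) and to 24.55 and 24.33 in NAC (0.82 ± 0.12, adjusted p = 4.4e-05, edgeR). Cxcr2, the receptor of CXCL1, had a mean of 7.41 FPKM with fractional counts in all 6 libraries. It fell in NAC (-0.63 ± 0.18), though not without control 1 (-0.35), without NAC 2 (-0.41) or with the labelled protocol as a covariate (-0.56).

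Ccrl2, an atypical receptor that binds chemerin without signalling, rose in PQ from 3.42 and 2.6 FPKM to 6.21 and 5.54 (0.94 ± 0.19, adjusted p = 0.0021, edgeR). Ptprz1, a receptor phosphatase reported to bind IL-34, the other ligand of CSF1R, was the most abundant on the list at a mean of 72.9 FPKM. It rose in NAC (0.75 ± 0.09) and fell slightly in PQ (-0.29 ± 0.09), a call lost without control 1 (-0.27), PQ 1 (-0.29) or PQ 2 (-0.29). Between PQ and NAC, Ptprz1 was lower in PQ (-1.04 ± 0.09, adjusted p = 6.6e-08, edgeR), and Ccrl2 (0.57 ± 0.18) and Cxcr2 (0.51 ± 0.18) were higher. Ccrl2 was not called without PQ 1 (0.50), PQ 2 (0.64), NAC 1 (0.51) or NAC 2 (0.64), nor with the protocol covariate (0.44). Cxcr2 was not called without PQ 2 (0.38) or NAC 2 (0.29), nor with the covariate (0.45). In these libraries most of the ligands were thus measured without their signalling receptors, whereas Cxcr4 was measured without its ligand.

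**Figure D4:**
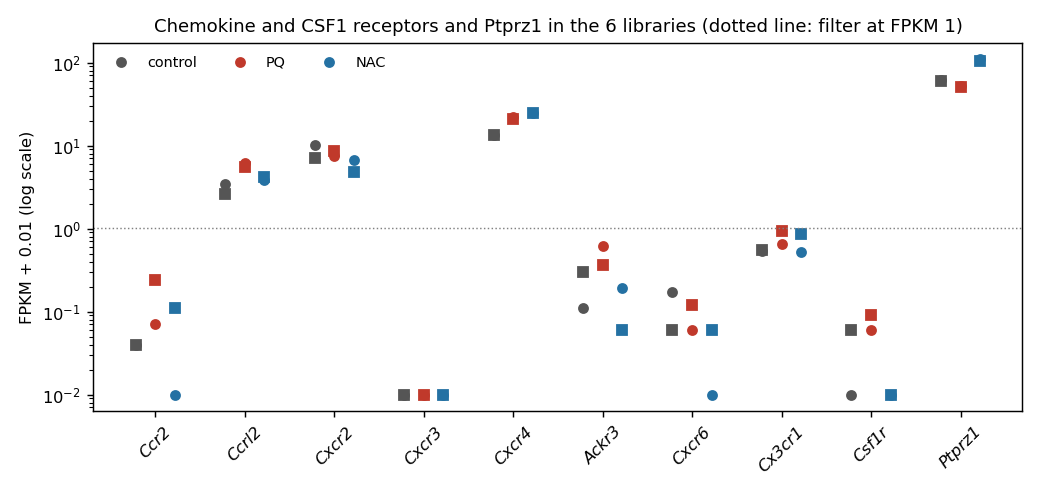
FPKM plus 0.01 (y axis, log scale) of 10 receptor genes in each library; circles are library 1 and squares library 2. Ccrl2, Cxcr2, Cxcr4 and Ptprz1 lie above the dotted line at 1 FPKM, and Csf1r and Cxcr3 lie at or near the floor.

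CX3CL1, CXCL16 and membrane CSF1 are released by ADAM10 and ADAM17, and 7 of 14 listed genes of shedding and processing could be tested. Adam10 and Adam17 had means of 132.8 and 33.3 FPKM and passed the test in neither treatment against control. In PQ against NAC Adam10 was higher (0.27 ± 0.09), not without PQ 1 (0.31), PQ 2 (0.24), NAC 1 (0.34) or NAC 2 (0.21), nor with the protocol covariate (0.25). Rhbdf1, an iRhom that matures ADAM17, was lower (-0.55 ± 0.13), not without PQ 2 (-0.43) or NAC 2 (-0.40), and Mmp15 was lower too (-0.89 ± 0.10). In PQ 3 genes rose and 1 fell (9.76% and 9.45% of all genes), and in NAC 3 rose and 0 fell (9.01% and 9.64%). The count that rose in PQ was 2 without any library but control 2. Frmd8, which stabilizes the iRhom-ADAM17 complex, rose in PQ (0.72 ± 0.12) and in NAC (0.72 ± 0.12). Timp3, an inhibitor of ADAM17 whose counts were fractional, rose in PQ (0.44 ± 0.10) and in NAC (0.40 ± 0.10), the latter not without NAC 1 (0.31). Mmp15, a membrane metalloprotease, rose in NAC (0.59 ± 0.10) and fell in PQ (-0.30 ± 0.10), the fall being lost without control 2 (-0.18), PQ 1 (-0.30) or PQ 2 (-0.31). Furin, a proprotein convertase, rose in PQ by 0.35 ± 0.12 and was not called without control 1 (0.14), PQ 1 (0.32), PQ 2 (0.38), NAC 1 (0.35) or NAC 2 (0.35). RNA levels do not measure shedding, which was not assayed here.

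Of 28 regulators of NF-kB and interferon signalling, 27 could be tested. This list too was drawn up with earlier results known, so nothing is read from its counts. In PQ against control 11 rose and 0 fell (9.76% and 9.45% of all genes), with a median log2 fold change of 0.16 over the 27. In NAC against control 9 rose and 1 fell (9.01% and 9.64% of all genes), with a median of 0.10. In PQ against NAC 5 were higher (Irf7, Irf9, Stat2, Ikbkg and Hif1a) and 5 lower (Nfkb1, Stat3, Fos, Sting1 and Cgas), beside 16.0% and 15.7% of all genes. Without PQ 1, 4 of them rose in PQ, and without any other library 9 to 11 did. Over all genes the number called higher in PQ fell likewise without PQ 1, from 1143 to 454, so the drop was not particular to this list. Between PQ and NAC 3 were higher in PQ without PQ 1 or NAC 1, where Irf9 (0.35 and 0.44) and Stat2 (0.30 and 0.41) were lost. In that comparison 3 were lower without PQ 2, where Nfkb1 (-0.37) and Fos (-0.53) were lost. Fos was also lost without PQ 1 (-0.50) or NAC 2 (-0.27), and Cgas without NAC 1 (-0.60). In the same comparison, with the labelled protocol as a covariate, Irf9 (0.388) and Fos (-0.455) were not called. In NAC the count was 6 without NAC 2 and 8 to 9 without any other library. The gene that fell in NAC, Hif1a (-0.43 ± 0.10), was not called without control 1 (-0.28) or NAC 2 (-0.36).

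Irf7, a transcription factor that amplifies interferon induction, rose from 12.95 and 10.02 FPKM in control to 33.52 and 25.54 in PQ (1.34 ± 0.15, adjusted p = 7.6e-06, edgeR), and was 9.39 and 10.67 in NAC. Tested directly, Irf7 was higher in PQ than in NAC (1.57 ± 0.15, adjusted p = 3.5e-07, edgeR). Irf9 and Stat2, which carry type I interferon signals to the nucleus, rose in PQ by 0.61 ± 0.14 and 0.49 ± 0.11, calls lost without PQ 1 (0.45 and 0.37). Sting1, the adaptor of the cytosolic DNA sensor, rose in NAC (0.71 ± 0.10), was not called in PQ (-0.26 ± 0.10), and was lower in PQ than in NAC (-0.96 ± 0.10, adjusted p = 1.3e-06, edgeR).

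Nfkbia, which encodes the inhibitor IkB-alpha, rose from 39.56 and 34.85 FPKM in control to 61.14 and 53.85 in PQ (0.60 ± 0.10, adjusted p = 0.00057, edgeR) and to 66.38 and 64.77 in NAC (0.77 ± 0.10, adjusted p = 3.1e-05, edgeR). Tnfaip3, the ubiquitin-editing inhibitor A20, rose in PQ (0.47 ± 0.10) and in NAC (0.42 ± 0.10), the latter not without NAC 2 (0.35). The related inhibitor genes Nfkbib, Nfkbie and Nfkbiz were called in neither treatment. Fos, a subunit of AP-1, rose in PQ (0.76 ± 0.18) and in NAC (1.28 ± 0.18). The other genes called higher in PQ were Rela, Ikbkg, Irf1, Cebpb and Cebpd, none of which was called without PQ 1 (0.28, 0.43, 0.41, 0.55 and 0.37). Rela was also lost without control 1 (0.30), Cebpb without control 2 (0.46), and Cebpd without control 2 (0.29) or PQ 2 (0.40). In NAC Irf1 (0.70 ± 0.11), Stat3 (0.47 ± 0.10) and Cebpd (0.47 ± 0.10) also rose. So did Nfkb1 and Relb, but neither without NAC 2 (0.33 and 0.38). Nfkb1 was also lost without control 1 (0.26) or NAC 1 (0.37), and Relb without control 2 (0.53). With the labelled protocol as a covariate Nfkb1 (0.32) and Relb (0.56) were not called.

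Chemokine mRNAs are short-lived and are cleared through AU-rich elements, and all 12 listed genes of that pathway could be tested. In PQ 2 rose and 1 fell (9.76% and 9.45% of all genes), and in NAC 2 rose and 0 fell (9.01% and 9.64%). Between PQ and NAC 1 was higher in PQ, Zc3h12a (0.79 ± 0.16), and 4 were lower (16.0% and 15.7% of all genes): Zfp36 (-0.59 ± 0.13), Zfp36l2 (-0.46 ± 0.09), Tia1 (-0.38 ± 0.11) and Tial1 (-0.26 ± 0.09). The count of 4 was 2 without PQ 1 or NAC 1, where Tia1 (-0.28 and -0.24) and Tial1 (-0.26 and -0.22) were lost. Tial1 was also lost without PQ 2 (-0.25) or NAC 2 (-0.28). With the labelled protocol as a covariate neither Tia1 (-0.34) nor Tial1 (-0.26) was called between PQ and NAC. Without control 1, control 2 or PQ 1 the counts in PQ were 3, 1 and 0 that rose and 0, 2 and 0 that fell. In NAC 1 rose without control 2, NAC 1 or NAC 2, and 1 fell without control 2. Zfp36 (tristetraprolin), which binds AU-rich elements and promotes decay, rose in NAC (1.17 ± 0.14, adjusted p = 7e-06, edgeR) from 8.79 and 9.58 FPKM to 19.38 and 23.28. It also rose in PQ (0.58 ± 0.14, 14.14 and 13.76 FPKM), a call lost without PQ 1 (0.57). Its relative Zfp36l1 rose in PQ (0.37 ± 0.09), not without control 2 (0.30) or PQ 1 (0.34). Zfp36l1 also rose in NAC (0.35 ± 0.09), not without control 2 (0.28), NAC 1 (0.33) or NAC 2 (0.37). Tia1 fell in PQ (-0.34 ± 0.11), not without control 1 (-0.33) or PQ 1 (-0.25).

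The genes most like each member across the 6 libraries were found by the Euclidean distance between log2 CPM centred on each gene's mean. For Ccl2 the 3 nearest were Iigp1 (distance 0.23), Ppfibp2 (0.26) and Cxcl10 (0.28), and for Cxcl10 they were Nfkbid (0.22), Ccl2 (0.28) and Gbp4 (0.38). The median gene lay 1.66 from Ccl2 and 1.54 from Cxcl10. For Ccl7 the nearest were Igtp, Celf5 and Gm12505, for Cxcl1 Tgm2, Tmsb15l and Lcn2, and for Ccl5 Prr36, Phlda3 and Syngr3. For Cx3cl1 they were Vasn, Kctd10 and Trim25, and for Csf1 Slc43a2, Usp35 and Tifa. Iigp1, Igtp and Gbp4 encode interferon-inducible GTPases. The other nearest genes were not sorted by function, so no common theme is read from these 3. With 6 libraries in 3 groups, likeness of this kind largely restates the order of the groups.

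Markers of several neural cell types were measured in the culture. Of 13 neural progenitor markers 11 had a mean of at least 1 FPKM, led by Vim (2073 FPKM) and Fabp7 (808), with Sox2 at 133.7 and Nes at 94.1, whereas Prom1 and Hes5 had at most 4 counts in any library. Of 7 oligodendroglial progenitor markers 4 did, led by Olig1 (429.3 FPKM), and Sox10 had at most 1 count. All 6 astrocyte markers did, led by Gja1 (127.4 FPKM), and 1 of 7 neuronal markers, Map2 (43.2 FPKM). Fewer cells of a type and less RNA per cell cannot be told apart in such bulk libraries.

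Microglia and macrophages are a common source of these chemokines. Of 18 markers 14 had at most 3 counts in every library, among them Csf1r, Aif1, Tmem119, Ptprc, Trem2 and Fcer1g, and Tyrobp, Spi1, C1qc, Fcrls and Adgre1 had 0 in all 6. P2ry12 (30 to 97 counts), Cx3cr1 (19.83 to 33.94, fractional) and Cd68 (10 to 27) were above that limit in every library. The most abundant was P2ry12 at a mean of 2.25 FPKM, which rose in NAC (1.18 ± 0.26), though not without NAC 1 (0.86). Cd68, the other marker tested, was not called with edgeR (1.05 ± 0.42 in PQ against control) but was with limma on log2(FPKM + 1) (0.64). It stood at 1.13 and 1.01 FPKM in control, 2.63 and 1.88 in PQ, and 1.33 and 1.12 in NAC, without overlap between PQ and control. The summed level of the 18 markers was 3.35 and 3.03 FPKM in control, 6.53 and 5.12 in PQ, and 6.15 and 4.86 in NAC, higher in both treated groups. Its part in the chemokine levels was not tested.

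Of 7 endothelial markers 1 could be tested, Flt1 at a mean of 15.3 FPKM, which rose in PQ (0.45 ± 0.11, lost without PQ 2 at 0.35), while Cdh5, Kdr, Emcn and Cldn5 had at most 2 counts in any library. The summed level of the 7 was 12.72 and 13.72 FPKM in control, 17.19 and 19.62 in PQ, and 13.82 and 17.12 in NAC. Of 9 fibroblast and mural markers 1 could be tested, Col3a1 at 3.93 FPKM, which fell in PQ (-0.91 ± 0.14), and Pdgfrb and Lum had at most 2 counts. The others were below the filter and were not tested. Acta2 stood at 0.12 and 0.04 FPKM in control, 0.79 and 0.4 in PQ, and 0.36 and 0.51 in NAC. Dcn stood at 0.28 and 0.06 FPKM in control, 1.27 and 0.46 in PQ, and 0.31 and 0.62 in NAC. Both lay higher in PQ, opposite to Col3a1, from at most 24 counts in any library. Rgs5 had 3 and 4 counts in control and 3 and 0 in PQ, at or near the detection limit, so no direction is given for it. Col1a1, Col1a2 and Tagln met or overlapped between PQ and control. The summed level of the 9 was 6.61 and 6.4 FPKM in control, 7.23 and 4.62 in PQ, and 6.81 and 6.41 in NAC. The part of these cell types in the chemokine levels was not tested.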

How the data were processed

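RNA-seq of 6 NSPC libraries was analysed from deposited gene tables keyed by NCBI gene identifier. For each gene the authors deposited expected counts, which estimate its reads and need not be whole. The authors deposited FPKM as well, scaled by transcript length and library size. The methods name a stranded Illumina kit, TopHat, mm9 and Cufflinks. The submitters' processing notes name TopHat2 2.0.11, Cufflinks 2.1.1, bcl2fastq 2.17 and mm9 for control 1 and PQ 1, and HISAT2 2.0.4, Bowtie2 2.2.5, RSEM and mm10 for the other 4 libraries. The columns of all 6 tables are of the RSEM type, so which pipeline made each table is uncertain. Genes missing from a table were taken as 0. Symbols were found for 99.7% of the identifiers (Sting1 and Cgas by synonym).

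Expected counts were rounded and tested with edgeR 4.0.16 in R 4.3.3 (TMM, glmQLFit and glmQLFTest, all 6 libraries, no covariate) over the 11717 genes whose FPKM averaged 1 or more. P-values were adjusted by Benjamini-Hochberg and called at 0.05. Each SE was derived by dividing the log2 difference by the root of its F value. Within-protocol differences and overlaps are of log2 TMM-scaled CPM (counts per library size). Libraries of a group differed beyond sampling noise (chi-square per degree of freedom 7.3 in control, 4.33 in PQ and 4.98 in NAC), so none was counted as a duplicate. Tested on simulated data for PQ against control over 11717 genes, the fit recovered 197 of 200 genes changed 2-fold and called 4 unchanged genes. The changed genes were drawn only from those above a floor of mean counts. The simulated spread followed the fitted trend, with no spread particular to a gene and no protocol effect. The recovery therefore does not give power or error in these libraries, nor for changes below 2-fold. At these depths 3 counts equal 0.28 to 0.31 CPM, which sets the detection limit.

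Alternatives were DESeq2 1.42.0 size factors and test, no filter on low values, limma 3.58.1 on log2(FPKM + 1) and log2(FPKM + 0.1), the labelled protocol as a covariate, only the 4 libraries compared, only the 4 TRIZOL libraries, each library left out, CPM in place of FPKM, and other detection rules. The labels carry no replicate numbers, so no pairing was used. Members and gene lists were chosen with earlier results of these data known, and 2 genes first on the lists are not reported here. Named genes are the members, Cdkn2a, genes of the lists called in some comparison or averaging 1 FPKM or more, a few below that whose counts are given as examples (chosen after their values were seen), and the 3 genes nearest in pattern to each member. Gene spans are from GENCODE vM1 on mm9, promoter windows from RefSeq on GRCm38.p6. Plots were drawn with matplotlib 3.10.9.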

Additional observations from a re-analysis of the deposited data

How the results depend on the processing

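As a description of genes chosen on these values, log2 fold changes in PQ against control ran over 14 alternatives from 1.39 to 1.75 for Ccl2, 0.59 to 0.83 for Ccl5, 1.30 to 1.96 for Ccl7, 0.87 to 1.61 for Cxcl1, 1.35 to 1.59 for Cxcl10, 0.48 to 0.80 for Cx3cl1 and 0.46 to 1.00 for Csf1. Directions that turned were small: Ccl7 in NAC against control was -0.052 without control 2 and 0.604 without control 1, and in PQ against NAC Cxcl1 was -0.049 with the protocol covariate and Csf1 -0.041 with only the TRIZOL libraries, -0.041 without PQ 1 and 0.496 without PQ 2. Adam10 in PQ against control was -0.01 without control 2 and 0.137 without control 1, and Adam17 in NAC against control -0.03 without NAC 1 and 0.112 without NAC 2. With all libraries kept, DESeq2 or limma no longer called Furin, Tia1, Ptprz1, Mmp15 and Cebpb in PQ against control, Nfkb1, Relb and Cxcr2 in NAC against control, or Il34, Kitl, Ccrl2, Cxcr2, Fos, Tial1 and Adam10 in PQ against NAC. With CPM in place of FPKM the ratio of mean levels of Ccl2 in PQ against control was 3.00, and the 7 measurable genes kept their direction.

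Counts over all genes depended on the libraries. With only the TRIZOL libraries 521 genes were called higher and 472 lower in PQ against control, from fewer samples. Limma on log2(FPKM + 1) called 725 lower in PQ and 737 lower in NAC, and the cause was not tested. Leaving out 1 library gave 454 to 1114 higher and 412 to 1092 lower in PQ against control, the lowest without PQ 1. It gave 633 to 1009 higher and 653 to 1117 lower in NAC against control, and 1229 to 2127 higher and 1114 to 2080 lower in PQ against NAC. A group left with 1 library was assumed to vary like the others. Members near the detection limit numbered 1, and 2 under the rules of at most 10 counts and of a mean below 1 FPKM.

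With 2 libraries per group and NAC under 1 protocol label, protocol and NAC against control 1 or PQ 1 cannot be told apart. At this depth no difference in Cxcl12 or Cxcl16 was detectable. Protein, secretion and shedding were not analysed here.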
